A study of Mus musculus with 9 samples.

Results

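Gm20388 is a readthrough gene on the plus strand of distal mouse chromosome 8 (ENSMUSG00000092329.1). Its annotated body in GENCODE M21 covers chr8:119910841-124345722 of the mm10 (GRCm38) genome, a length of 4.43 Mb that ends 5.06 Mb before the end of the chromosome. The deposited list of differentially methylated regions (DMRs) was searched for every region that overlapped this body, and 56 of the 12949 listed DMRs did so. Chromosome 8 held 683 further DMRs. The study compared the hypothalamus of male C57/Bl6 pups on postnatal day 6 after modified maternal separation (MMS) with that of control pups, to ask whether DNA methylation changed. MMS pups spent 1.5 h of each of postnatal days 4 to 6 away from the dam and were turned onto their backs whenever they righted themselves. Control and MMS pups were taken from the same litters, no mutation or drug is named for either group, and the 10 males of each group were mixed into 3 libraries per group. Since a library mixed animals, variation from pup to pup cannot be read from these values. The 2 input libraries and the IgG library served only the authors' processing.

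A readthrough gene is annotated where a transcript runs past the end of a gene and is spliced to exons of a gene further along, so that its body can enclose many unrelated genes. The values were from methylated DNA immunoprecipitation (meDIP), in which an antibody against methylated cytosine pulls down DNA fragments, so that reads over a region depend on how methylated it is and on how many CpG sites it holds. CpG methylation in mammals is found across gene bodies and intergenic DNA, and is usually low at CpG-dense promoters. Each DMR was listed with the log2 mean of normalised reads in control and in MMS, and the difference below is always MMS minus control on that log2 scale. No value per library was used, so no SD or overlap between libraries is given, and the authors' own p-value and FDR for each DMR were left out. The DMRs were chosen by the group means themselves, through the authors' FDR for MMS against control, so their differences are a description.

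Gm20388 had a single annotated transcript with 16 exons, 3953 exonic bases and 1608 coding bases. Its first exon shared its end with an exon of Usp10, a deubiquitinating enzyme. Exons 2 to 16 shared their ends with exons of Galnt2, an enzyme that starts O-linked glycosylation of proteins. The first intron spanned 4384418 bp, or 98.9% of the body, and 55 of the 56 DMRs lay in it. The remaining DMR lay in the second intron, inside Galnt2, and 0 DMRs touched an exon of Gm20388. The body overlapped 72 ordinary protein-coding genes and 137 other annotated genes besides Gm20388. The first DMR lay 439 kb into the body and the last 48.7 kb before its end. The nearest DMRs beyond the body were at chr8:119810723-119811587, 99.3 kb to the left, with log2 means of 1.87 in control and 4.40 in MMS, and at chr8:124400469-124400833, 54.7 kb to the right, with 4.32 in control and 0.20 in MMS.

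Sequences of 6 DMRs are given on the plus strand of mm10, 5′ to 3′, with CpG sites in capitals. They are the DMRs with the largest difference in each direction outside untranslated regions, those with the most and an example of those with the fewest CpG sites per 100 bp, a DMR at an internal promoter of Mthfsd, and the only DMR in Galnt2. DMRs wider than 300 bp are shown by their central 300 bp.
Between Irf8 and Foxf1, largest difference towards MMS, chr8:120862143-120862442: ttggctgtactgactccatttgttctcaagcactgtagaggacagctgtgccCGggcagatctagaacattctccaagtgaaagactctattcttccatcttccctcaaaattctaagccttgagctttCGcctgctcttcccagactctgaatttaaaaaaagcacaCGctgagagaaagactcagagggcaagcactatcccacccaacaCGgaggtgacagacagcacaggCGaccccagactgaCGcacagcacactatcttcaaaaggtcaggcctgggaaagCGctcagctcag
Between Banp and Zfpm1, large difference towards control, chr8:122120885-122121068: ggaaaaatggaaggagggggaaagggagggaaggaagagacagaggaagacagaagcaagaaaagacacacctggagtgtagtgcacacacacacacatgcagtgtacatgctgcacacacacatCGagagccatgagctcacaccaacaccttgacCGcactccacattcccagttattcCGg
Tcf25, most CpG sites per 100 bp, chr8:123374174-123374473: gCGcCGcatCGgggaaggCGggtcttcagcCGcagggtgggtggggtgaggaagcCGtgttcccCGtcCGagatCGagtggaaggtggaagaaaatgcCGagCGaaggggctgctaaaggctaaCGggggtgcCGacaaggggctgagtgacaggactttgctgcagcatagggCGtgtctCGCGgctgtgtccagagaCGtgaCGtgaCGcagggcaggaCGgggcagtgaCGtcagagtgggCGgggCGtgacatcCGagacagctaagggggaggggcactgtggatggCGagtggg
Between Foxl1 and 1700018B08Rik, no CpG site, chr8:121449349-121449501: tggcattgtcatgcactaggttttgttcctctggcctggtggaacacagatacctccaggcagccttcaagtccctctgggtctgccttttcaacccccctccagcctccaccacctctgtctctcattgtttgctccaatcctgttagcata
Mthfsd, internal promoter, chr8:121101872-121102095: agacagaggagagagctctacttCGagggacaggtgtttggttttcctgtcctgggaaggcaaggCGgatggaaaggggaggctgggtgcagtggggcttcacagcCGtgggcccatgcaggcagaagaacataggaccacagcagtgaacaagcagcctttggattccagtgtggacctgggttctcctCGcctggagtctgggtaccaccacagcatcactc
Galnt2, intron 2, chr8:124296642-124296941: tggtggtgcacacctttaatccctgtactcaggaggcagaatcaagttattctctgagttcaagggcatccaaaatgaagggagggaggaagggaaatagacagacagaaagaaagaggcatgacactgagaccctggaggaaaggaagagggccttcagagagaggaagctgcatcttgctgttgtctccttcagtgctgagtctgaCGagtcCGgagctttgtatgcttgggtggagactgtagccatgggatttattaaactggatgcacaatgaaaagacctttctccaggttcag
The printed stretch of the Tcf25 DMR held 25 CpG sites, against 7 in the stretch between Irf8 and Foxf1, 2 in that of Galnt2 and 0 in the DMR between Foxl1 and 1700018B08Rik. The Mthfsd DMR held 4 CpG sites and the DMR between Banp and Zfpm1 held 3.

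MMS was the higher group at 30 of the 56 DMRs (53.6%) and control at 26. The same share was 62.6% over all 12949 listed DMRs and 62.1% over the rest of chromosome 8. Both directions were found along the length of the body. Of the 55 pairs of neighbouring DMRs, 24 (43.6%) had the same direction, against 382 of 738 (51.8%) on all of chromosome 8. The longest run of neighbours in a single direction was 4 DMRs, and gaps between neighbours ranged from 1.57 to 252 kb with a median of 49.1 kb.

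**Figure D1:**
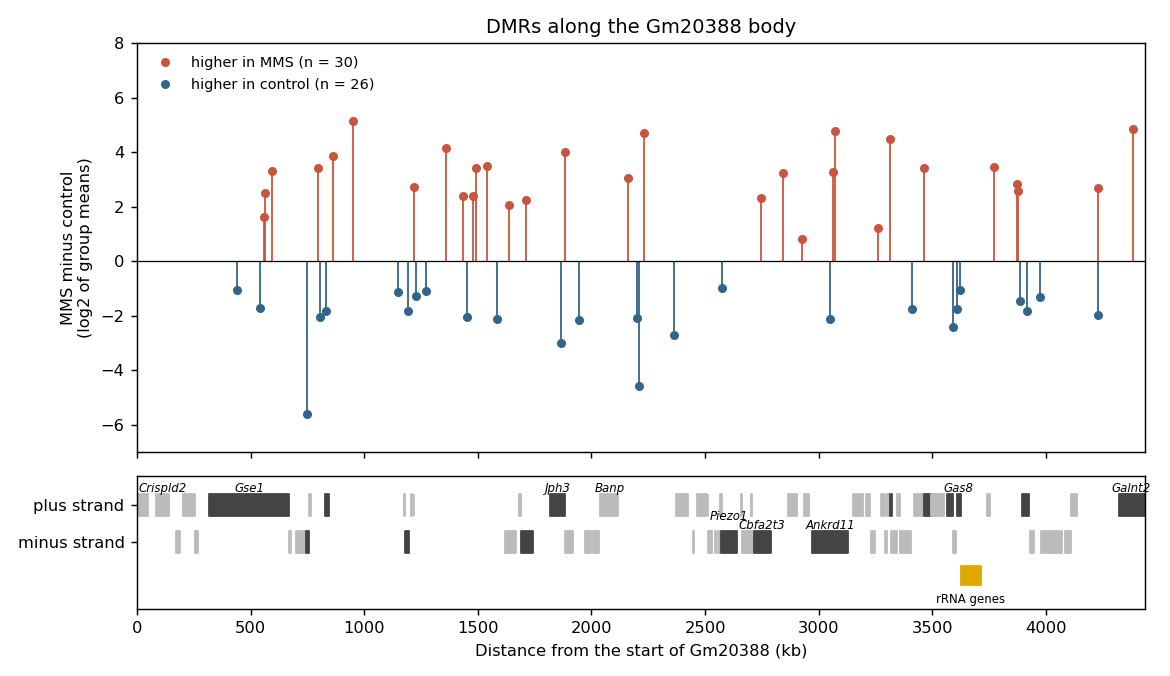
The upper panel plots the difference of the group means (MMS minus control, log2 of normalised reads) of each of the 56 DMRs against its distance in kb from the start of Gm20388, in red where MMS was higher and in blue where control was higher. The lower panel shows the ordinary protein-coding genes on each strand, dark where they held a DMR, and the 5S rRNA gene cluster, and red and blue DMRs are mixed along the body with 0 over the rRNA genes.

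Of the 72 ordinary protein-coding genes, 15 held at least 1 DMR, and 23 DMRs lay over them. MMS was higher at 11 of these 23 (47.8%) and control at 12. The other 33 DMRs lay outside ordinary protein-coding genes, with MMS higher at 19 (57.6%) and control at 14. On the rest of chromosome 8, MMS was higher at 187 of 311 DMRs in ordinary gene bodies and at 237 of 372 outside them. Of the 33 in the locus, 8 lay over a gene of another type while 25 lay over no annotated gene. Ordinary protein-coding genes covered 50.3% of the bases of the body and held 41.1% of its DMRs. In the rest of chromosome 8 they covered 48.1 of 121 Mb and held 311 of 683 DMRs. The share of genes with a DMR elsewhere on the chromosome is not given here. Of the 13 genes longer than 50 kb, 7 held a DMR, and the longest gene without a DMR was Banp, a nuclear matrix-associated DNA-binding protein, at 79.5 kb. Usp10, which has an exon that shares its end with the first exon of Gm20388, held 0 DMRs.

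The gene lists here and below were picked by hand and need not hold every gene of a kind in the body. Of the 13 genes listed for transcription and chromatin proteins, 5 held a DMR (Gse1, Irf8, Cbfa2t3, Ankrd11 and Tcf25). They held 11 DMRs in all, 7 higher in MMS and 4 higher in control. The 13 genes also made up the longest list, with 842 kb of gene body, so that they held 1.31 DMRs per 100 kb against 1.03 over all ordinary genes of the locus. Gse1, a component of a histone-demethylase corepressor complex, held the most DMRs, 5 in 353 kb or 1.42 per 100 kb. From left to right, the first Gse1 DMR (chr8:120350176-120350364) had log2 means of 5.95 in control and 4.88 in MMS, and the second (chr8:120452990-120453412) had 4.86 in control and 3.16 in MMS. The next 3 Gse1 DMRs were higher in MMS instead, so the direction turned once along the gene. At chr8:120470142-120471239 the means were 4.18 in control and 5.80 in MMS, and at chr8:120473780-120474371, 2541 bp further on, they were 1.71 and 4.22. At chr8:120505696-120505881 control was at its lowest listed value, -0.17, and MMS was at 3.13. That last DMR lay in intron 1 of the principal transcript, and the other 4 lay upstream of the start of that transcript, within longer annotated Gse1 transcripts. The second Gse1 DMR had near-identical copies elsewhere in the genome over 57.0% of its width.

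Ankrd11, a chromatin regulator needed in neural development, held 3 DMRs in 158 kb, or 1.89 per 100 kb. In intron 2 at chr8:122962401-122962609 the log2 means were 4.86 in control and 2.75 in MMS. In intron 1 control was at its lowest listed value in both DMRs, while MMS was at 3.10 at chr8:122975103-122975267 and at 4.60 at chr8:122981435-122981795. The first of these intron 1 DMRs held no CpG site in its 165 bp and its centre lay within the 1000 bp upstream of the start of non-principal Ankrd11 transcripts. The difference of the second, 4.77, was the largest towards MMS in this list. Irf8, a transcription factor of microglia and other myeloid cells, had a DMR in intron 2 of its principal transcript at chr8:120741718-120742561, with log2 means of 5.29 in control and 3.46 in MMS. All 844 bp of this DMR lay in exon sequence of non-principal Irf8 transcripts. Cbfa2t3, a transcriptional corepressor, had a DMR in intron 1 (chr8:122658830-122659416), with 1.48 in control and 3.79 in MMS. Tcf25 had a DMR at chr8:123374051-123374596 whose centre lay 499 bp after the start of its principal transcript, with 0.50 in control and 3.94 in MMS. It held 32 CpG sites, or 5.86 per 100 bp, the highest CpG content of the 56. The other 8 genes of the list, among them the forkhead factors Foxf1, Foxc2 and Foxl1 and the GATA cofactor Zfpm1, held 0 DMRs within their bodies.

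Of the 9 genes listed for membrane, channel and transport proteins, 2 held DMRs. MMS was higher at 1 of their DMRs and control at 2, a density of 1.09 per 100 kb over the list. Jph3, a junctophilin that ties the endoplasmic reticulum to the plasma membrane in neurons, held a pair of DMRs of opposite direction. In intron 2 at chr8:121776751-121777840 the log2 means were 4.56 in control and 1.57 in MMS. At chr8:121792356-121793440, outside the principal transcript, they were -0.17 in control and 3.84 in MMS. Piezo1, a mechanically gated cation channel, had the smallest difference of the DMRs higher in control, -0.97, with 6.13 in control and 5.16 in MMS. This DMR (chr8:122484456-122486056) overlapped 803 coding bases, and its centre lay in intron 42 and within the 1000 bp upstream of the start of a retained-intron transcript. The melanocortin receptor gene Mc1r held 0 DMRs.

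Of the 11 genes in the list for metabolism and mitochondria, which took in Emc8 although its product acts in the endoplasmic reticulum, Emc8 and Mthfsd held 1 DMR each, both higher in control, and the list held 1.11 DMRs per 100 kb. Emc8, a subunit of the complex that inserts proteins into the endoplasmic reticulum membrane, had the largest absolute difference of all 56 DMRs. Its DMR (chr8:120657025-120657211) had log2 means of 5.37 in control and -0.24 in MMS, the lowest listed value of that group, and all 187 bp lay in the 3′ UTR in the last exon. It was the only DMR of the locus at which MMS was at its lowest value. The Mthfsd DMR had 4.58 in control and 2.74 in MMS, and lay in intron 5 of the principal transcript, with its centre within the 1000 bp upstream of the start of other transcripts. All 224 bp of it lay in exon sequence of non-principal Mthfsd transcripts.

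Cdk10, a cyclin-dependent kinase, was the only gene with a DMR among the 4 genes listed for replication, repair and cell cycle. With 1 DMR the list held 1.35 per 100 kb, against 1.03 over all ordinary genes of the locus. The Cdk10 DMR (chr8:123225696-123227152) had log2 means of 0.20 in control and 4.70 in MMS, overlapped 145 coding bases, and was centred in intron 2, within the 1000 bp upstream of the start of a retained-intron transcript. Of the 10 genes in the list for cytoskeleton, trafficking and cilia, Gas8, a part of the dynein regulatory complex of motile cilia, held 2 DMRs, both higher in control, or 1.17 per 100 kb over the list. In intron 2 at chr8:123521959-123522200 the means were 4.97 in control and 3.20 in MMS, and in intron 9 at chr8:123531908-123533114 they were 5.95 and 4.91. Tubb3, the neuronal beta-tubulin, held 0 DMRs. The 7 genes listed for ubiquitin and protein turnover, only 171 kb in all, held 0 as well. That list took in Spg7 but not the protease subunit Afg3l1, so its 0 depends on how the lists were drawn. Of the 18 genes placed in none of these lists, 4 held a DMR, 2 in each direction, and Afg3l1 and Rab4a were among them although their products act in mitochondria and in trafficking. Zcchc14, a zinc finger protein, had 2.03 in control and 4.27 in MMS at chr8:121623090-121623495. Galnt2 had -0.17 in control and 4.70 in MMS at chr8:124296550-124297033, a difference of 4.87 and the largest towards MMS over an ordinary gene. Afg3l1, a mitochondrial protease subunit, had 5.03 in control and 2.63 in MMS over untranslated sequence of its last exon (chr8:123502078-123503243). Rab4a, a small GTPase of recycling endosomes, had 4.41 in control and 2.60 in MMS at chr8:123827338-123827522, across 101 coding bases of exon 3. Of the 15 genes, 4 held more than 1 DMR, and 3 of these 4 (Gse1, Jph3 and Ankrd11) held DMRs of both directions.

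**Figure D2:**
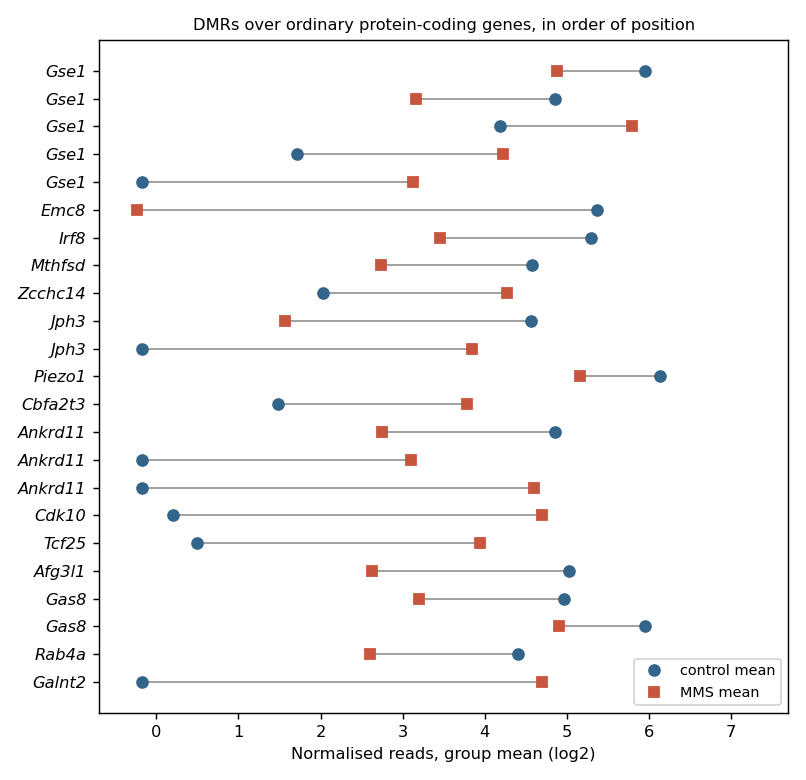
Each row is a DMR over an ordinary protein-coding gene, ordered by position, with the control mean (blue circles) and the MMS mean (red squares) in log2 normalised reads on the horizontal axis. Control was the higher group in 12 of the 23 rows and MMS in 11, and the longest line is that of Emc8, from 5.37 in control to -0.24 in MMS.

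The 33 DMRs outside ordinary protein-coding genes had a density of 15 per Mb over all such sequence of the locus. Gaps with DMRs held from 0.915 to 19.5 per 100 kb, the highest from 1 DMR in 5.12 kb. The gap from Foxl1 to 1700018B08Rik held the most, 10 DMRs in 400 kb, or 2.5 per 100 kb, with 6 higher in MMS and 4 higher in control. Some shorter gaps with fewer DMRs had a higher density, such as 3.22 per 100 kb between Cox4i1 and Irf8. Of its DMRs, 2 lay over the lincRNA gene Gm26815, with log2 means of -0.17 in control and 3.98 in MMS at chr8:121269184-121269848 and of 1.46 and 3.87 at chr8:121344702-121345366. The leftmost DMRs of this gap lay beside Foxl1, 4894 bp apart and of opposite direction. The first (chr8:121131134-121131334), 490 bp from the end of Foxl1, had 1.22 in control and 3.96 in MMS, and the second (chr8:121136228-121136656) had 5.23 and 3.94. A wide DMR of 2127 bp further along (chr8:121182116-121184242) had the highest control mean of the 56, 6.67, against 5.59 in MMS. The other 5 DMRs of the gap had control means from -0.17 to 5.09 and MMS means from 2.57 to 4.10.

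The gap between Irf8 and Foxf1 held 3 DMRs in 328 kb. The DMR at chr8:120861623-120862962 had the largest difference towards MMS of the locus, 5.15, with control at its lowest value of -0.17 and MMS at 4.98, and held 27 CpG sites in 1340 bp. To its left, a DMR at chr8:120772429-120773106 had 0.20 in control and 4.05 in MMS. The third lay over Fendrr, a long noncoding RNA gene transcribed next to Foxf1, and was higher in control, with 5.44 against 4.32 (chr8:121060404-121061641). The gap between Banp and Zfpm1 held 5 DMRs in 253 kb, 2 higher in MMS and 3 higher in control. The largest differences in it were at chr8:122120885-122121068, with 5.14 in control and 0.55 in MMS, and at chr8:122140920-122141251, the next DMR to the right, with -0.17 in control and 4.54 in MMS. These neighbours therefore had large differences of opposite sign. The leftmost DMR of this gap (chr8:122071905-122072100) had 1.86 in control and 4.91 in MMS, and the next (chr8:122111071-122111222) had 4.59 and 2.51. A DMR at chr8:122275848-122276048, near Zfpm1, held no CpG site and had 4.27 in control and 1.58 in MMS.

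Between Rhou and Rab4a, 4 DMRs lay in 142 kb, 3 of them higher in MMS. The closest pair of DMRs in the whole body lay here, 1567 bp apart, and both were higher in MMS. Their log2 means were 0.96 in control and 3.79 in MMS at chr8:123784415-123785059, and 1.64 and 4.23 at chr8:123786626-123788082. On their left a DMR at chr8:123682140-123682517 had -0.17 in control and 3.30 in MMS, and on their right the DMR nearest Rab4a (chr8:123797928-123798164) had 4.85 and 3.39. Between Urb2 and Galnt2 a pair 2630 bp apart had opposite directions, with 1.82 in control and 4.52 in MMS at chr8:124139383-124139866 and 4.34 and 2.35 at chr8:124142496-124142768. The widest DMR of the body, 4942 bp with 88 CpG sites at chr8:122836149-122841090, lay between Acsf3 and Cdh15 over the processed pseudogene Gm45893. It had the highest mean over all libraries, 6.74, and the smallest difference towards MMS, 0.81, with 6.28 in control and 7.09 in MMS. A DMR over the lincRNA gene Gm4316 (chr8:123172945-123173546) also had high means in both groups, 4.38 in control and 5.62 in MMS. Of the 24 lincRNA genes in the body, 4 held a DMR, 5 DMRs in all, against 15 of the 72 ordinary protein-coding genes. The remaining gaps with DMRs held 1 or 2 each, with control means from 0.20 to 5.36 and MMS means from 2.61 to 4.56.

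Over all 56 DMRs the median control mean was 4.22, against 2.02 in all other DMRs, and the median difference was 1.43 against 2.43. The medians within each direction, which the split by direction partly fixes, lay closer to those elsewhere. Those higher in MMS had median log2 means of 0.35 in control and 4.07 in MMS, against 0.20 and 4.09 elsewhere, and 3 of the 30 had a control mean over 4, against 2.89% of all DMRs higher in MMS. Those higher in control had medians of 5.05 in control and 2.98 in MMS, against 5.13 and 3.33 elsewhere, and all 26 had a control mean over 4, against 96.7% of all DMRs higher in control. Control lay within 0.5 of its lowest listed value at 15 of the 30 (50%, against 52.7% of all DMRs higher in MMS), and 11 of these were exactly at it. MMS was that low at 1 of the 26 (3.85%, against 4.6% of all DMRs higher in control). A difference against a group at its lowest value depends on where that value was set. The median difference was 3.26 in the DMRs higher in MMS (range 0.81 to 5.15), against 3.43 elsewhere, and -1.83 in those higher in control (range -5.61 to -0.97), against -1.73 elsewhere.

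The share higher in MMS moved with the size of difference required. An absolute difference of at least 2 was found at 38 of the 56 (67.9%, against 69.9% of all DMRs), and 27 of the 38 (71.1%) were higher in MMS, against 80.6% of all DMRs of that size. Without the DMRs at which a group was near its lowest value, 40 were left and 37.5% of them were higher in MMS, against 45.3% of all such DMRs.

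**Figure D3:**
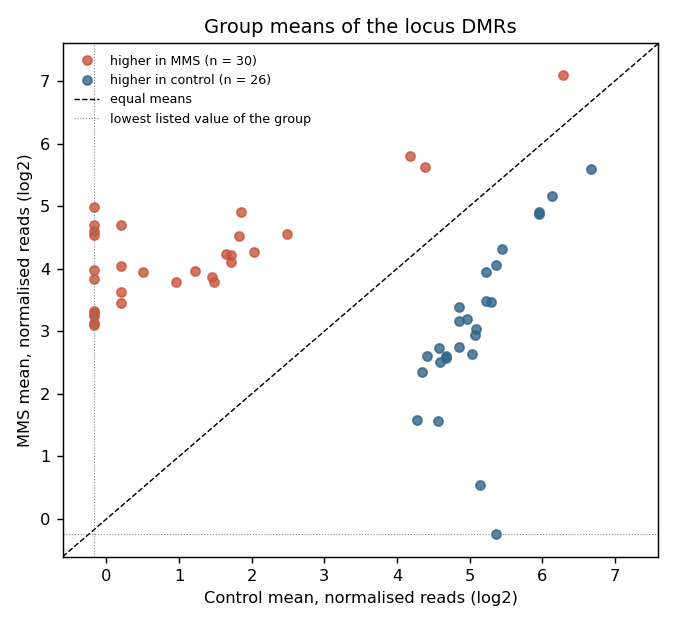
Each point is a DMR of the locus, with its control mean on the horizontal and its MMS mean on the vertical axis, both in log2 normalised reads, and the dashed line marks equal means. The 30 DMRs higher in MMS (red) mostly lie at low control means, 11 of them on the dotted line at -0.17, and the 26 higher in control (blue) lie at control means over 4.

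The DMRs were also set beside annotated transcription starts. The locus was denser in genes than the rest of chromosome 8, with 72 ordinary protein-coding genes in 4.43 Mb against 958 in 121 Mb. The centre of 22 DMRs (39.3%, against 26.9% in the rest of chromosome 8) lay within 10 kb of the start of a transcript, coding or not, of an ordinary protein-coding gene, and the median distance was 17.5 kb against 38.8 kb. Only the centres in Mthfsd, Piezo1, Ankrd11 and Cdk10 fell within 1000 bp upstream to 100 bp downstream of a start, and each of these starts belonged to a non-principal transcript inside the gene. These 4 were 7.14% of the locus DMRs, against 2.34% in the rest of chromosome 8. Control was higher in Mthfsd and Piezo1 and MMS was higher in Ankrd11 and Cdk10. Within the 23 gene DMRs, 6 touched an exon of the principal transcript (10.7% of the 56, against 8.64% in the rest of chromosome 8), and 4 of them (Piezo1, Cdk10, Tcf25 and Rab4a) overlapped coding bases.

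The sequence of the locus was rich in CpG sites, with 1.72 per 100 bp against 0.873 in the rest of chromosome 8, and its GC content was 51.1% against 42.0%. The median DMR of the locus held 1.65 CpG sites per 100 bp, against 1.32 in all other DMRs and 1.34 in the rest of chromosome 8. By direction the medians were 1.69 in DMRs higher in MMS and 1.64 in those higher in control, against 1.26 and 1.43 elsewhere. The median DMR of the locus thus held about as many CpG sites per 100 bp as the locus as a whole. Elsewhere on the chromosome the median DMR held more than the sequence there. These comparisons set a median over DMRs against a mean over sequence, and the sequence of the locus includes the rRNA cluster, which held no DMR. DMRs without a CpG site numbered 3 (5.36%, against 2.38% of all other DMRs), and all 3 were at most 201 bp wide. DMRs higher in control were narrower in the locus, with a median width of 258 bp against 566 bp in those higher in MMS, whereas elsewhere the medians were 596 and 516 bp. In all, 21 of the 56 (37.5%, against 27.7% elsewhere) were under 300 bp. Repeats made up 14.1% of the median locus DMR and 20.7% elsewhere. In 48 of the 56 DMRs no stretch of at least 100 bp had a copy with 95% identity elsewhere in the genome, 8 had partial copies, and 0 had copies over 90% or more of their width.

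**Figure D4:**
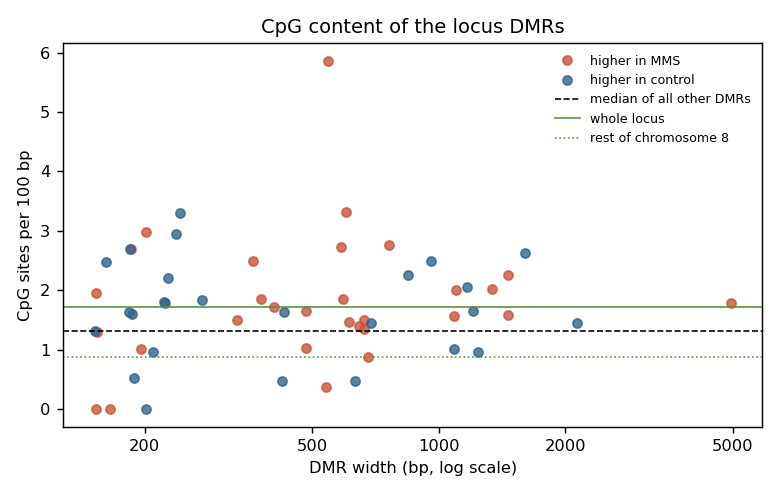
CpG sites per 100 bp of each locus DMR are plotted against its width in bp (log scale), in red where MMS was higher and in blue where control was higher. Horizontal lines mark the median of all other DMRs (1.32), the whole locus (1.72) and the rest of chromosome 8 (0.873), and the point at 5.86 is the Tcf25 DMR.

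The locus held 12.6 DMRs per Mb and the rest of chromosome 8 held 5.64, a ratio of 2.24. The locus was proposed with its number of DMRs known, so this ratio is a description. It made up 3.53% of the bases of the chromosome, 6.74% of its CpG sites and 7.58% of its DMRs. Per 1000 CpG sites the locus held 0.732 DMRs and the rest 0.646, a ratio of 1.13. Within ordinary gene bodies the locus held 10.3 DMRs per Mb against 6.47 in the rest (ratio 1.6), and outside them 15 against 5.09 (ratio 2.94). Per 1000 CpG sites these became 0.583 against 0.614 in gene bodies and 0.892 against 0.675 outside them.

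Chromosome 8 was cut into 29 windows of the length of the locus. The window of the locus held the most DMRs, 56 against 6 to 48 in the others (median 23.5), and also the most CpG sites, 1.72 per 100 bp against 0.495 to 1.22. In DMRs per 1000 CpG sites it ranked 8, within a range of 0.273 to 0.916. Of 530 autosomal windows of this length with at most 10% unknown bases (N), none held more CpG sites and 9 held more DMRs, up to 67. The 29 windows of chromosome 8 were not limited in this way, and the first of them held 63.8% N. The 2 windows within 10% of its CpG content, on chromosomes 4 and 11 (chr4:137481343-141916224 and chr11:115306933-119741814), held 62 and 58 DMRs. MMS was higher at 48 of the 62 and at 38 of the 58, against 30 of the 56 in the locus.

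**Figure D5:**
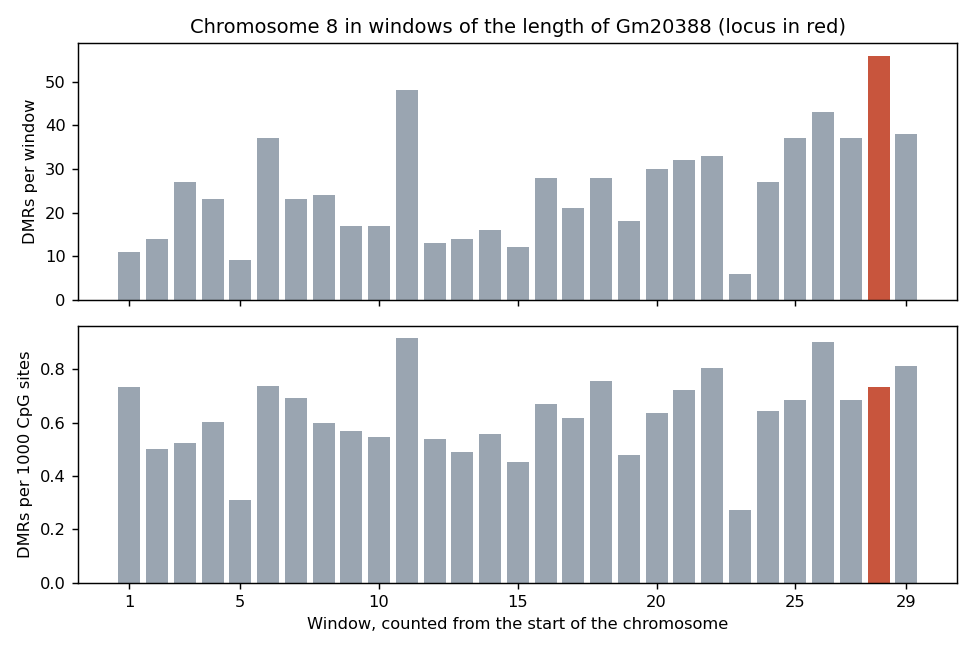
DMRs per window (upper panel) and DMRs per 1000 CpG sites (lower panel) are shown for 29 consecutive windows of chromosome 8, each as long as the Gm20388 body, with the window of the locus in red. The locus has the tallest bar by number of DMRs, 56, and ranks 8 once CpG sites are counted.

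A CpG-rich stretch of the body held no DMR. Longer stretches without a DMR were also found, up to 252 kb between neighbours and 439 kb at the start of the body. A cluster of 51 rRNA genes at chr8:123538786-123623745, 41 of them named as 5S rRNA genes (n-R5s), spanned 85.0 kb with 5.42 CpG sites per 100 bp. These genes give the small RNA of the large ribosomal subunit and stand in tandem copies. Whether reads could be placed uniquely among these copies was not tested. At the density of the locus it would hold 1.07 DMRs by its length and 3.37 by its 4604 CpG sites. The nearest DMR to its left lay 5.67 kb away, in Gas8, and the nearest to its right 58.4 kb away.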

How the data were processed

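meDIP libraries of 3 control and 3 MMS pools of hypothalamus DNA, 2 inputs and 1 IgG library were sequenced by the authors on the Ion Proton platform, aligned to mm10 with Torrent Suite, and peaks were called with MACS2 over inputs in broad mode with the human genome size setting. The authors then compared the groups with DiffBind and DESeq2. The labels name the methylcytosine antibody for inputs and IgG too. The authors deposited log2 means of normalised reads for all libraries, for control and for MMS, in a table of DMRs with an FDR of 0.05 or lower, read here as untreated for control and treated for MMS. That table also holds the authors' log2 fold, p-value and FDR, which were not used. The depth of each library is not in the values used, and no value per library was available here, so limma, leaving out libraries and a replicate block could not be run.

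Members were all DMRs overlapping the body of Gm20388. Members and gene lists were chosen with earlier results of these data known. Full values were given for genes with 3 or more DMRs, the largest and smallest differences, the highest mean, the most and fewest CpG sites, promoters and pairs within 5000 bp, and further DMRs were named after their values were seen. Genes came from GENCODE M21, CpG, GC and repeats from the GRCm38 reference, and copies from BLAST 2.17.0 at 95% identity over 100 bp. The principal transcript of a gene is the longest protein-coding transcript with an APPRIS principal tag in GENCODE. The counting of overlaps and CpG sites was tested on simulated data. Alternatives covered overlap, size limits, annotation, density per CpG and like windows. The work was done in Python 3.11.15 with pandas 2.3.3, numpy 2.4.6 and scipy 1.17.1, and plots were drawn with matplotlib 3.10.9.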

Additional observations from a re-analysis of the deposited data

How the results depend on the processing

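No paired analysis was possible because the values used hold group means and no libraries, and for the same reason no library could be left out. The number of DMRs stayed at 56 whichever overlap was required or when neighbours were joined, and was 54 and 38 at absolute differences of at least 1 and 2. The share higher in MMS, 53.6%, became 71.1% at a difference of at least 2 and 37.5% without DMRs near a lowest value, and lay between 47.8 and 53.7% otherwise. The density ratio of 2.24 became 1.13 per 1000 CpG sites and 1.6 within ordinary gene bodies, and lay at 1.97 and 2.19 against the distal side of the chromosome and at a difference of at least 2. Of 3 alternatives chosen after seeing the data, the ratio was 0.933 against the autosomal windows of like CpG content, 1.21 without the 5S rRNA cluster per 1000 CpG sites, and 2.28 without that cluster per Mb. DMRs over ordinary genes numbered 23, 24 with widened genes and 26 with RefSeq genes, and the median CpG content ranged from 1.64 to 1.67 per 100 bp. The 3 pools per group limit the precision, and only DMRs already listed as differing were available for comparison.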
